A study of Homo sapiens with 16 samples.

Results

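The amino acid transporters described here are 10 genes, SLC7A5, SLC3A2, SLC7A11, SLC7A1, SLC1A5, SLC1A4, SLC38A1, SLC38A2, SLC43A1 and SLC43A2, chosen by name as plasma membrane carriers of leucine, glutamine, cystine and small neutral amino acids, together with SLC7A1, which carries cationic amino acids. All 10 were found by symbol among the 20531 entries of the count table, and all 10 passed the filter on low counts in every comparison. The cells were LNCaP, a line from a human prostate cancer that responds to androgen. For 24 h they received siRNA at 40 nM, either a nonsense control (NS) or 1 pool against SLIRP, an RNA-binding coregulator of the androgen receptor, and were then kept for 24 h in serum-free medium with ethanol vehicle (Veh) or dihydrotestosterone (DHT), a potent androgen, at 1 nM. Each of the 4 groups (NS-Veh and SLIRP-Veh in vehicle, NS-1nM DHT and SLIRP-1nM DHT in androgen) had 4 libraries, from 2 experiments with 2 biological replicates in each. Every library therefore came from transfected and serum-starved cells, and since only 1 pool was used, loss of SLIRP and other effects of that pool cannot be told apart.

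Cells take up most amino acids through membrane carriers of the solute carrier (SLC) families. SLC3A2 (CD98, 4F2hc) is a glycoprotein heavy chain that brings partner light chains to the cell surface. SLC7A5 (LAT1) is the light chain that exchanges leucine and other large neutral amino acids for glutamine, and SLC7A11 (xCT) is the light chain that brings in cystine, the source of cysteine for glutathione, in exchange for glutamate. SLC43A1 (LAT3) and SLC43A2 (LAT4) carry large neutral amino acids without a heavy chain, and LAT3 is known in prostate cancer cells as an androgen-responsive carrier. SLC7A1 (CAT1) takes up arginine and lysine. SLC1A5 (ASCT2) and SLC1A4 (ASCT1) exchange neutral amino acids such as serine and alanine, and SLC1A5 also exchanges glutamine. SLC38A1 (SNAT1) and SLC38A2 (SNAT2) take up glutamine, alanine and other small neutral amino acids together with sodium. Several of these genes are known targets of ATF4, the transcription factor that rises when amino acids run short and that binds composite C/EBP-ATF elements, also called amino acid response elements.

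The letters TGATGNAA, a common form of the core of that element, were searched on both strands in RefSeq promoter windows (GRCh38.p14, 250 bases before to 50 after a start site). The windows cover 9 members, all but SLC7A11, with 18 windows in all. The letters stood in a window of 5 of these 9 genes, against 4.457% of all 27305 symbols with windows. The stricter form TGATGCAA stood in windows of 2 of the 9, against 1.08% of all symbols. Symbols differ in their number of windows, and one with more windows has more chances of a match. Counted by window, 5 of the 18 held TGATGNAA, against 3.617% of all 35116 windows. For TGATGCAA it was 2 of the 18, against 0.8657%. The 5 stretches are shown because the choice of genes did not use this shared feature. Each is 30 bases on the strand of the gene, with the matching letters in capitals.
SLC1A4: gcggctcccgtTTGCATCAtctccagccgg
SLC3A2: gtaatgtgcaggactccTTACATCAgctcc
SLC38A1: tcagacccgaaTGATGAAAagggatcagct
SLC7A1: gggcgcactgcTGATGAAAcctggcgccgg
SLC1A5: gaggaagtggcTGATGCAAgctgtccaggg
The stretch of SLC1A4 lies at chr2:64989381-64989410 on the plus strand, with its match on the opposite strand starting 7 bases before the start site (position -7). The match of SLC3A2, at chr11:62881719-62881748 on the plus strand, is also on the opposite strand and begins at position 38 after the start site. In SLC38A1 (chr12:46266502-46266531, minus strand) and SLC7A1 (chr13:29595663-29595692, minus strand) the match is on the strand of the gene and begins at positions -4 and 8. In SLC1A5 (chr19:46784893-46784922, minus strand) it begins at position -97 of one of the start sites listed for the gene. The windows of SLC38A2, SLC43A1, SLC43A2 and SLC7A5 did not hold these letters. A match is a description of the sequence and not a measured binding site.

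Library totals lay between 436353 and 1689708 counts, and 2 of the 4 NS-Veh libraries, replicates 1 and 2, were the shallowest of the series with 512925 and 436353. SLIRP, listed as C14orf156, had 57.1 ± 5.43 CPM (SD, n = 8; CPM are counts per 1000000 of the TMM-scaled library total) in NS libraries and 3.82 ± 2.67 CPM (n = 8) in SLIRP siRNA libraries, 6.76% of the control level by the fit. The 8 luminal prostate markers had counts in 16 of 16 libraries. Of the 12 markers of other cell types, KRT5, TP63, PECAM1, PTPRC and CD3E, which mark basal, endothelial and immune cells, had 0 counts throughout. The fibroblast markers COL1A1 (5.64 to 21.9 CPM) and COL3A1 (1.30 to 11.3 CPM) had counts in all 16 libraries. The immune marker CD68 had them in 15, the neuroendocrine markers SYP and CHGA in 13 and 2, the basal marker KRT14 in 3 and COL1A2 in 1. Summed over the list of other cell types, markers reached between 15.7 and 35.9 CPM. The luminal sum was 3665 to 4343 CPM in NS libraries and 2722 to 3437 CPM in SLIRP siRNA libraries. This sum moved with the siRNA, as did several transporters, and its part in their changes was not tested. The markers in it did not move as one. FOLH1, the highest, had a mean of 1960 CPM in NS and 1230 CPM in SLIRP siRNA libraries. Of the 8 markers, 3 went the other way in their means, KLK3 (164 ± 136 to 235 ± 149 CPM), KLK2 (15.3 to 29.9 CPM) and TMPRSS2 (134 to 185 CPM). In bulk RNA, fewer cells of a type and less RNA per cell cannot be told apart.

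SLIRP siRNA was compared with NS over 8 against 8 libraries, to ask what loss of SLIRP changes with and without androgen. SLC7A11 fell to 34.7% and SLC38A2 to 69.7% of the NS level, and SLC1A4, SLC7A1, SLC38A1 and SLC43A1 rose. Of the 10 transporters, 4 were higher and 2 lower at an FDR (Benjamini-Hochberg adjusted p, edgeR quasi-likelihood test) under 0.01, and 4 did not pass. Among all 10167 genes tested, 17.8% were higher and 17.4% lower. The median log2 fold change of the 10 was 0.093, against -0.015 for all genes tested. The CPM of the groups did not overlap for 3 of the 10, against 15.2% of all genes tested.

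**Figure D1:**
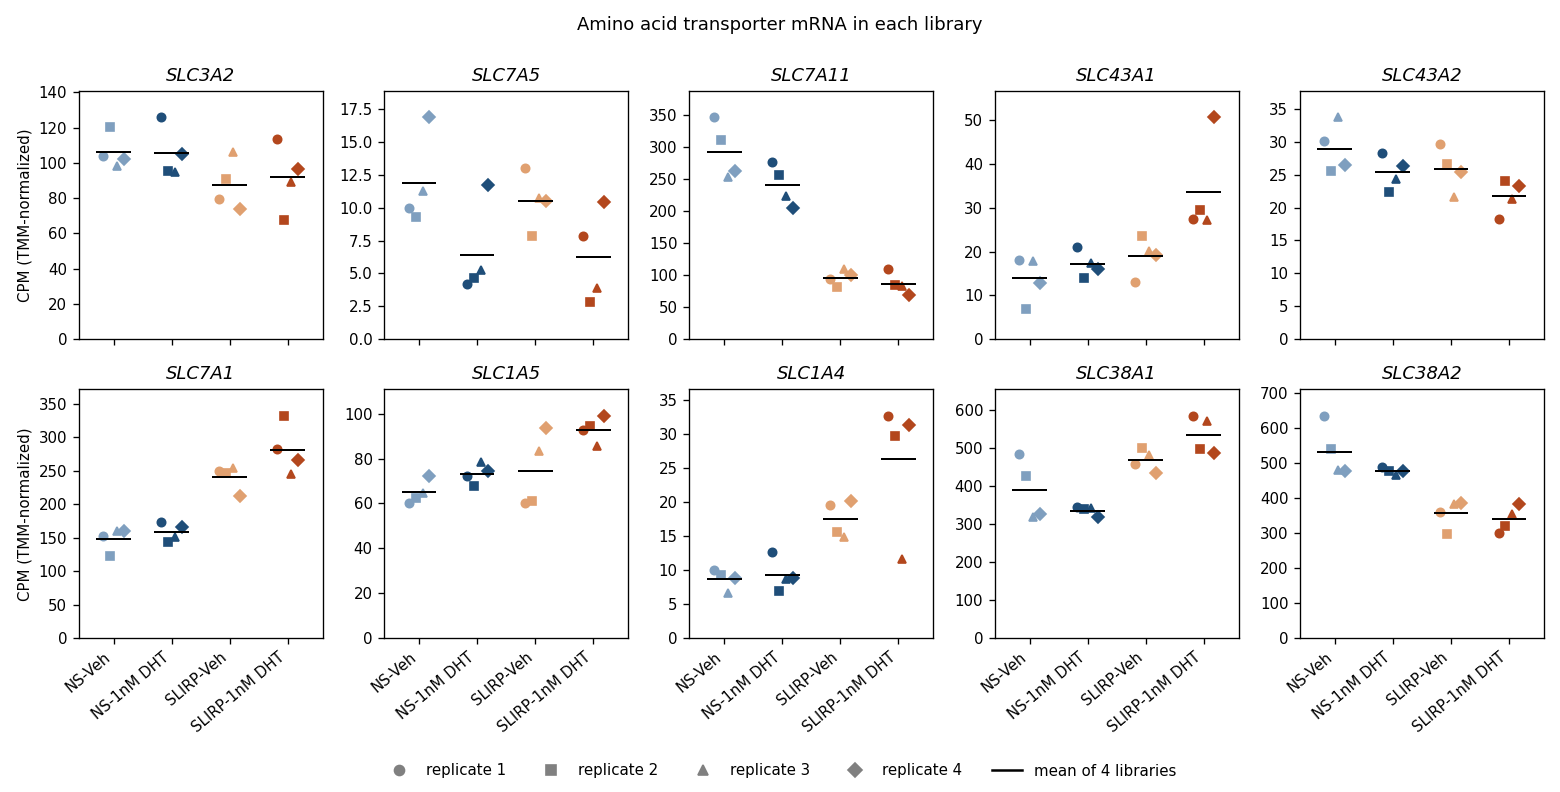
TMM-normalized CPM of the 10 transporters (vertical axes from 0, a scale for each gene) in the 4 libraries of each group, with the group mean as a bar. The 8 SLIRP siRNA libraries sit between 68.4 and 110.3 CPM for SLC7A11, below all 8 NS libraries, which sit between 205 and 346 CPM, while for SLC7A1 they sit above all NS libraries.

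SLC7A11, the cystine carrier, changed most. The gene (Entrez 23657) spans chr4:139085251-139163503 on hg19, minus strand, with 12 exons in its main transcript, and SLC7A11-AS1 overlaps it on the other strand. Whether counting used strand is not stated in the sources used here, so reads of such partners could have been assigned to the transporter. SLC7A11 stood at 346, 311, 252 and 262 CPM in the NS-Veh libraries and at 276, 257, 223 and 205 CPM in the NS-1nM DHT libraries. With SLIRP siRNA it stood at 93.5, 81.4, 110.3 and 99.9 CPM in vehicle and at 109.55, 84.6, 83.5 and 68.4 CPM in DHT. The highest SLIRP siRNA library was below the lowest NS library. The fall over 8 against 8 libraries was 1.53 on the log2 scale (log2 fold change -1.53, SE 0.10), to 34.7% of the NS level (edgeR FDR 3.28e-13). It was -1.56 (SE 0.13, edgeR FDR 2.24e-12) in vehicle and -1.49 (SE 0.13, edgeR FDR 8.57e-12) in DHT. The difference between these changes was 0.07 (95% interval -0.30 to 0.44). Without the shallow NS-Veh libraries, an alternative chosen after seeing the data, the change over the remaining libraries was -1.43.

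SLC3A2, the heavy chain that SLC7A11 and SLC7A5 share, did not pass. It spans chr11:62623476-62656352 (plus strand, 9 exons), and no annotated gene overlaps it. NS libraries had 104, 120.5, 98.4 and 102 CPM in vehicle and 126, 95.6, 94.9 and 105 CPM in DHT. SLIRP siRNA libraries had 79.3, 90.8, 106 and 73.6 CPM in vehicle and 113, 67.7, 89.3 and 96.5 CPM in DHT. The ranges overlapped, with the lowest values in SLIRP siRNA libraries. The log2 fold change was -0.24 (SE 0.10, 95% interval -0.44 to -0.04, edgeR FDR 0.048), which passes an FDR of 0.05 but not 0.01. It was -0.28 in vehicle (edgeR FDR 0.12) and -0.18 in DHT (edgeR FDR 0.304).

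SLC7A5, the leucine light chain, was close to the limit of this depth. Its locus is chr16:87863629-87903113 (minus strand, 10 exons), overlapped by an unnamed gene on the other strand. The gene had 2 to 22 counts per library, where 3 counts correspond to between 1.78 and 6.95 CPM, so only large changes were detectable. Values were 10.007, 9.27, 11.2 and 16.9 CPM in NS-Veh, 4.19, 4.63, 5.23 and 11.7 CPM in NS-1nM DHT, 13.02, 7.83, 10.8 and 10.5 CPM in SLIRP-Veh, and 7.825, 2.82, 3.88 and 10.5 CPM in SLIRP-1nM DHT. The siRNA groups overlapped over most of their range. The log2 fold change with SLIRP siRNA was -0.06 (95% interval -0.67 to 0.54, edgeR FDR 0.883), and its sign turned when any of 5 libraries was left out.

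Of the carriers of large neutral amino acids that need no heavy chain, SLC43A1 rose and SLC43A2 did not pass. SLC43A1 (chr11:57252007-57283253, minus strand, 15 exons, overlapped by a Y RNA on the other strand) had 18.01, 6.95, 17.8 and 12.8 CPM in NS-Veh and 21.0, 13.9, 17.4 and 16.1 CPM in NS-1nM DHT. In SLIRP-Veh it had 13.02, 23.5, 20.2 and 19.3 CPM, within or just above the NS values. In SLIRP-1nM DHT all 4 libraries, at 27.4, 29.6, 27.2 and 50.7 CPM, were above every other library. The log2 fold change over 8 against 8 libraries was 0.71 (SE 0.23, edgeR FDR 0.00991), just under the threshold, and leaving out any of 12 of the 16 libraries moved the FDR above 0.01. Without replicate 4 of SLIRP-1nM DHT, the library at 50.7 CPM, it was 0.47 (edgeR FDR 0.0566), and without the shallow NS-Veh libraries it was 0.67 (edgeR FDR 0.0204). In DHT alone the change was 1.04 (SE 0.24, edgeR FDR 8.24e-04), a 2.06-fold rise, and 0.75 (edgeR FDR 0.0243) without replicate 4. With limma on the deposited normalized table it was 0.89 (limma FDR 0.0403), which did not pass either. In vehicle it was 0.28 (95% interval -0.32 to 0.88, edgeR FDR 0.514).

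SLC43A2 (chr17:1472562-1532180, minus strand, 14 exons, overlapped by RN7SL105P and snoU13 on the same strand) lay between 22.4 and 33.7 CPM in NS libraries (median 26.4, n = 8) and between 18.3 and 29.6 CPM in SLIRP siRNA libraries (median 23.6, n = 8). The ranges overlapped. Its log2 fold change was -0.17 (95% interval -0.46 to 0.12, edgeR FDR 0.351).

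SLC7A1, the arginine and lysine carrier, rose in both treatments. It spans chr13:30083551-30169825 (minus strand, 13 exons), with no overlapping annotated gene, and its promoter window holds the TGATGAAA letters shown above. Its levels were 152, 123, 159.9 and 159.8 CPM in NS-Veh and 174, 143, 152 and 165 CPM in NS-1nM DHT. They were 249.8, 246, 254 and 212 CPM in SLIRP-Veh and 283, 331, 245 and 266 CPM in SLIRP-1nM DHT. The lowest SLIRP siRNA library was above the highest NS library. The log2 fold change was 0.74 (SE 0.08, edgeR FDR 8.70e-09), a 1.67-fold rise. It was 0.65 (SE 0.11, edgeR FDR 6.22e-06) in vehicle and 0.82 (SE 0.10, edgeR FDR 2.71e-08) in DHT, and the difference between these was 0.16 (95% interval -0.13 to 0.46).

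The neutral amino acid exchangers SLC1A4 and SLC1A5 differed in outcome, although the difference between them was not tested. SLC1A4 (chr2:65215611-65250999, plus strand, 8 exons) is overlapped by LINC02245 on the other strand and by RNU6-548P. It had few counts, 4 to 12 per NS library and 10 to 39 per SLIRP siRNA library. In CPM it stood at 10.007, 9.27, 6.61 and 8.83 in NS-Veh and at 12.6, 6.94, 8.71 and 8.77 in NS-1nM DHT. With SLIRP siRNA it stood at 19.5, 15.7, 14.8 and 20.2 in vehicle and at 32.6, 29.6, 11.7 and 31.4 in DHT. Replicate 3 of SLIRP-1nM DHT was the only SLIRP siRNA library that fell within the NS range, below the highest NS library at 12.6 CPM. The log2 fold change was 1.32 (SE 0.23, edgeR FDR 1.77e-05), a 2.49-fold rise and the largest rise among the 10. It was 1.51 (SE 0.29, edgeR FDR 8.44e-05) in DHT and 1.77 there without replicate 3. In vehicle it was 1.13 (SE 0.33, edgeR FDR 0.00829), with separated groups, but the FDR went above 0.01 when any of 8 libraries was left out, up to 0.0546 without replicate 3 of NS-Veh, and was 0.0172 without the shallow NS-Veh libraries.

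SLC1A5, the glutamine exchanger (chr19:47278140-47291851, minus strand, 8 exons), had 60.04, 62.6, 64.7 and 72.3 CPM in NS-Veh and 72.3, 67.9, 78.4 and 74.6 CPM in NS-1nM DHT. It had 60.4, 61.1, 83.4 and 93.8 CPM in SLIRP-Veh and 92.6, 94.5, 85.5 and 98.9 CPM in SLIRP-1nM DHT. The vehicle groups overlapped, while the 4 SLIRP-1nM DHT libraries were above the 4 NS-1nM DHT libraries. Its log2 fold change was 0.25 (95% interval 0.03 to 0.47, edgeR FDR 0.0526) over 8 against 8 libraries and 0.34 (SE 0.13, edgeR FDR 0.0393) in DHT, neither under 0.01. Without replicate 1 of SLIRP-Veh, at 60.4 CPM, the change over the remaining libraries was 0.34 (edgeR FDR 0.00671), which passed. Without replicate 2 of that group, nearly as low at 61.1 CPM, it was 0.29 and did not pass. With all libraries kept, it also passed with the replicate number as a block, as given below.

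The sodium-coupled carriers SLC38A1 and SLC38A2 moved in opposite directions. They are neighbours on chromosome 12, SLC38A1 at chr12:46576846-46663800 (minus strand, 17 exons) and SLC38A2 at chr12:46751971-46766556 (minus strand, 16 exons), the latter overlapped by SLC38A2-AS1 on the other strand and the former by an unnamed gene on the same strand. SLC38A1 had 484, 426, 318 and 327 CPM in NS-Veh and 344, 339, 341 and 319 CPM in NS-1nM DHT. It had 458, 499, 483 and 436 CPM in SLIRP-Veh and 584, 498, 572 and 487 CPM in SLIRP-1nM DHT. Only the 2 shallow NS-Veh libraries, at 484 and 426 CPM, came near or within the SLIRP siRNA values. The rise over 8 against 8 libraries was 0.49 (SE 0.08, edgeR FDR 9.70e-06), and 0.60 without those libraries. In DHT it was 0.67 (SE 0.09, edgeR FDR 5.06e-07). In vehicle it was 0.31 (SE 0.10, edgeR FDR 0.0128), which did not pass, and 0.53 (edgeR FDR 8.76e-05) without the shallow libraries. Of 27 alternatives, 9 called it in vehicle, among them no filter on low counts (edgeR FDR 0.00346) and at least 10 counts in every library (edgeR FDR 0.00597).

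SLC38A2 had 634, 540.04, 481 and 478 CPM in NS-Veh and 489.6, 479, 465 and 479 CPM in NS-1nM DHT. In SLIRP-Veh it had 361, 297, 383 and 387 CPM and in SLIRP-1nM DHT 301, 320.1, 355 and 384 CPM. All SLIRP siRNA libraries were below all NS libraries, and the shallow NS-Veh libraries were again the highest. The log2 fold change was -0.52 (SE 0.07, edgeR FDR 5.00e-07), to 69.7% of the NS level, and -0.45 without the shallow libraries. It was -0.55 (SE 0.09, edgeR FDR 1.29e-05) in vehicle and -0.48 (SE 0.09, edgeR FDR 6.35e-05) in DHT.

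**Figure D2:**
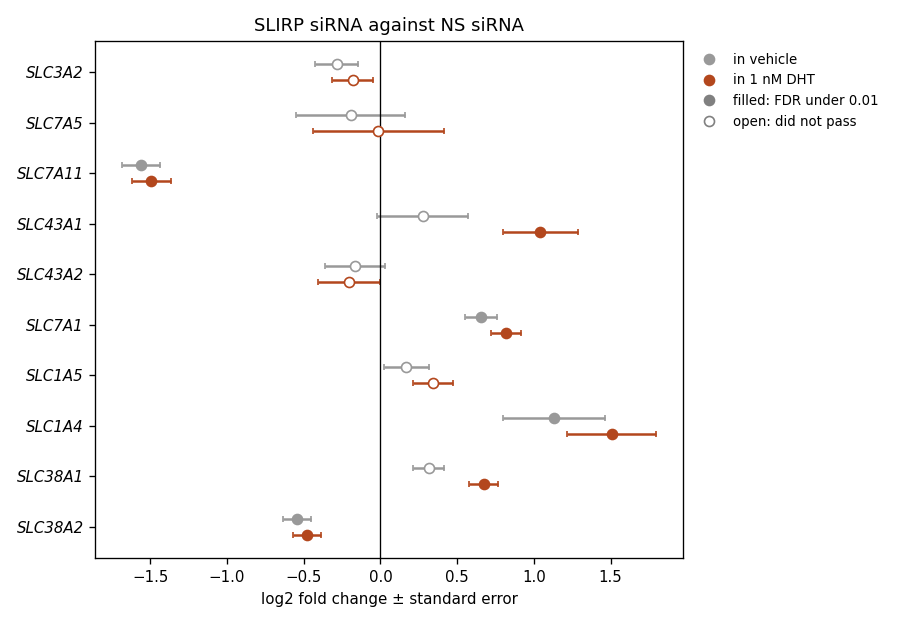
Log2 fold change of each transporter with SLIRP siRNA against NS, with its standard error, in vehicle and in 1 nM DHT (contrasts of a 4-group model over 16 libraries), filled where the FDR was under 0.01. SLC7A11 lies near -1.5 and SLC38A2 near -0.5 in both treatments, and SLC43A1 and SLC38A1 are filled in DHT alone, SLC38A1 just missing the threshold in vehicle (edgeR FDR 0.0128), and their difference between treatments did not pass.

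Taking the treatments apart, 2 of the 10 were higher (SLC7A1, SLC1A4) and 2 lower (SLC7A11, SLC38A2) in SLIRP-Veh against NS-Veh, where 11.8% of the 10684 genes tested were higher and 9.95% lower. Between the siRNAs in DHT, 4 were higher in SLIRP-1nM DHT (SLC7A1, SLC1A4, SLC38A1, SLC43A1) and the same 2 lower, where 12.8% of genes tested were higher and 11.6% lower.

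The ratio of 2 transporters within a library does not depend on how that library was scaled. As counts were not divided by length here, only the difference of a ratio between libraries can be read, as a description with no test. SLC38A1 over SLC38A2 was 0.662 to 0.790 in NS-Veh, 0.666 to 0.734 in NS-1nM DHT, 1.124 to 1.68 in SLIRP-Veh and 1.27 to 1.94 in SLIRP-1nM DHT. Every SLIRP siRNA library thus had a higher ratio than every NS library. SLC7A11 over its heavy chain SLC3A2 was 1.95 to 3.33 over the NS libraries of both treatments and 0.708 to 1.36 over the SLIRP siRNA libraries. SLC1A4 over SLC1A5 was 0.102 to 0.174 in NS libraries, and in SLIRP siRNA libraries 0.177 to 0.324 in vehicle and 0.136 to 0.352 in DHT. SLC43A1 over SLC43A2 was 0.273 to 0.600 in NS-Veh, 0.611 to 0.741 in NS-1nM DHT, 0.440 to 0.938 in SLIRP-Veh and 1.24 to 2.17 in SLIRP-1nM DHT. Each library of the last group thus had a higher ratio than every other library.

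**Figure D3:**
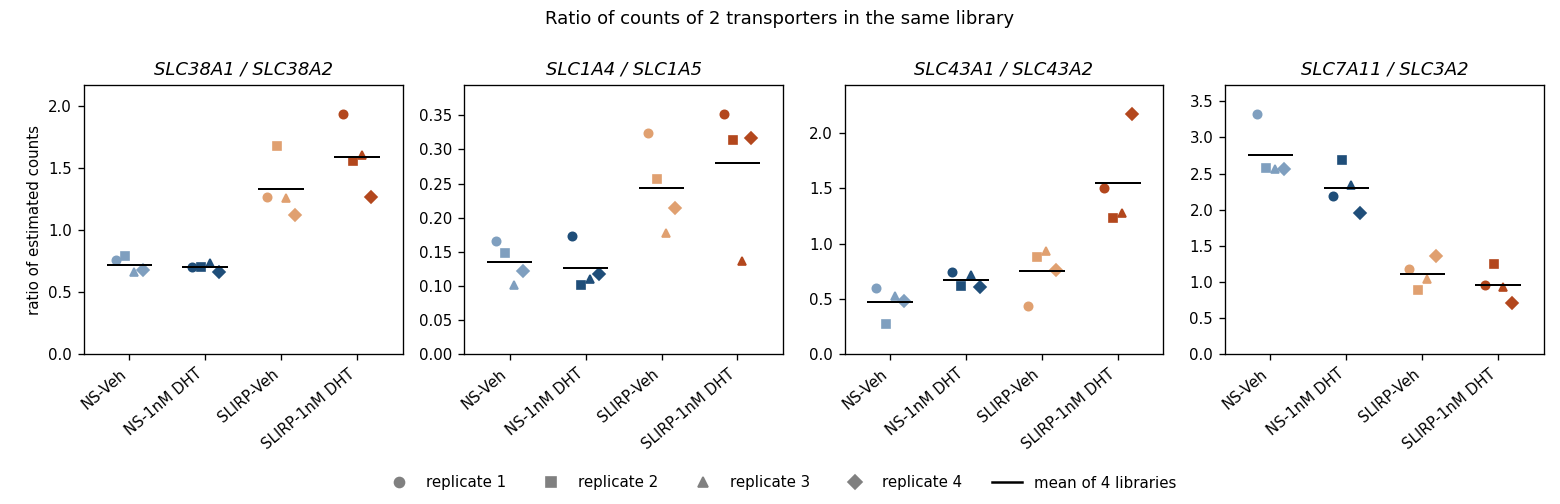
Ratio of the estimated counts of 2 transporters in the same library (vertical axes from 0), for the 4 libraries of each group, with the group mean as a bar. SLC38A1 over SLC38A2 lies at or below 0.790 in the 8 NS libraries and at or above 1.124 in the 8 SLIRP siRNA libraries.

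DHT was compared with vehicle in NS cells to ask which genes androgen regulates in control cells. None of the 10 transporters passed by edgeR or limma (0 of 10), nor any of the 6 to which DESeq2 gave an adjusted p (SLC7A5, SLC1A4, SLC43A1 and SLC43A2 got none), where 1.31% of the 10367 genes tested did by edgeR. At an unadjusted p under 0.05 there were 2 by edgeR, SLC7A11 and SLC7A5, 1 by DESeq2 and 2 by limma. Among all genes tested, 1478 of 10367 were under it by edgeR, 894 of 16041 by DESeq2 and 1485 of 13147 by limma. SLC7A11 had a log2 fold change of -0.25 (SE 0.10, edgeR FDR 0.206), and -0.11 (edgeR FDR 0.729) without the shallow NS-Veh libraries, which held its highest values. With replicates 1 and 2 against 3 and 4 as batches, chosen after seeing the data, it was -0.29 (SE 0.07, edgeR FDR 0.0101). That was just above the threshold, and the labels do not name such batches. SLC7A5 had -0.91 (SE 0.37, edgeR FDR 0.213), with 3 of the 4 NS-1nM DHT libraries below all NS-Veh libraries and replicate 4, at 11.7 CPM, within their range. SLC43A1, known as an androgen-responsive carrier, had 0.18 (95% interval -0.37 to 0.74, edgeR FDR 0.837). SLC38A2 had -0.14 (95% interval -0.29 to 0.02) and SLC38A1 -0.16 (-0.35 to 0.04). Without replicate 1 of NS-Veh, where both were highest, these were -0.058 and -0.052, and without both shallow libraries -0.011 and 0.050. SLC1A5 had 0.14 (95% interval -0.12 to 0.40).

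In SLIRP siRNA cells DHT gave 0 of 10 at an FDR under 0.01 by edgeR and limma and 0 of the same 6 by DESeq2, where 1.17% of genes tested passed by edgeR. At an unadjusted p under 0.05 there were 4 by edgeR (SLC38A1, SLC7A1, SLC1A5 and SLC43A1), 4 by DESeq2 and 2 by limma. Among all genes tested, 1663 of 10684 were under it by edgeR, 1259 of 16903 by DESeq2 and 1688 of 13147 by limma. The largest change of these 4 transporters was that of SLC43A1, with a log2 fold change of 0.96 (SE 0.25, edgeR FDR 0.0257). Its 4 SLIRP-1nM DHT libraries were above the 4 SLIRP-Veh libraries. Without replicate 4 of SLIRP-1nM DHT it was 0.66 (edgeR FDR 0.206). SLC1A5 had 0.32 (SE 0.14, edgeR FDR 0.22), SLC7A1 0.22 (SE 0.10, edgeR FDR 0.258) and SLC38A1 0.20 (SE 0.09, edgeR FDR 0.302). SLC1A4 had 0.52 (95% interval -0.02 to 1.06, edgeR FDR 0.344).

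**Figure D4:**
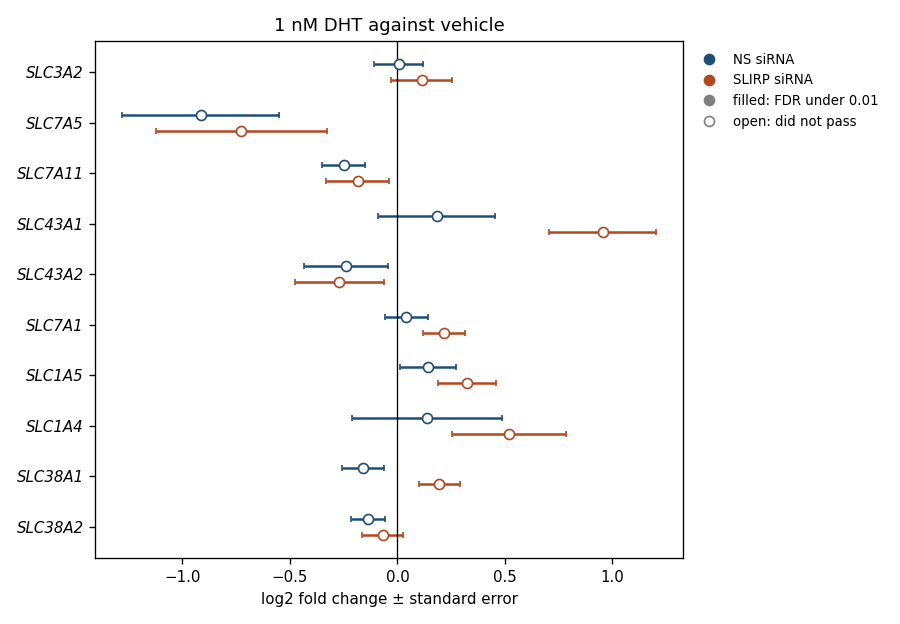
Log2 fold change of each transporter with 1 nM DHT against vehicle, with its standard error, in NS and in SLIRP siRNA cells. All points are open because none reached an FDR under 0.01, and SLC43A1 in SLIRP siRNA cells lies farthest to the right at 0.96.

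The difference of the DHT response between SLIRP siRNA and NS cells was tested directly. It passed for 0 of the 10 transporters and for 0% of all 10684 genes by edgeR, and for 0 genes by DESeq2 and limma. At an unadjusted p under 0.05 there were 388 of 10684 genes by edgeR, 220 of 16903 by DESeq2 and 589 of 13147 by limma. Of the 10 transporters there was 1, SLC38A1, by each of these tools. For SLC38A1 the difference was 0.36 (SE 0.14, unadjusted edgeR p 0.0126, edgeR FDR 1.00), and 0.16 without the shallow NS-Veh libraries. For SLC43A1 it was 0.77 (95% interval -0.02 to 1.55, unadjusted edgeR p 0.0552), and 0.47 without replicate 4 of SLIRP-1nM DHT. These intervals leave room for differences that 4 libraries a group of this depth could not detect.

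Levels of different genes were compared as CPM per kilobase of the main transcript. In NS libraries (mean ± SD, n = 8) the order began with SLC38A2 at 105 ± 11.8, SLC3A2 at 56.1 ± 6.05 and SLC38A1 at 44.8 ± 7.44. SLC7A11 followed at 27.6 ± 4.69, SLC1A5 at 23.98 ± 2.20 and SLC7A1 at 20.9 ± 2.11, neighbours that did not differ beyond their SDs. SLC43A1 stood at 6.17 ± 1.70, SLC43A2 at 3.34 ± 0.433, SLC7A5 at 2.01 ± 0.951 and SLC1A4 at 1.965 ± 0.406. The leucine light chain was thus among the lowest of the 10 and the SDs of SLC43A2 and SLC7A5, of SLC7A5 and SLC1A4, and of SLC3A2 and SLC38A1 overlapped. In SLIRP siRNA libraries the order was SLC38A2 at 72.7 ± 7.83, SLC38A1 at 62.0 ± 6.36, SLC3A2 at 47.5 ± 8.36, SLC7A1 at 35.5 ± 4.75 and SLC1A5 at 29.1 ± 5.23, each overlapping the next within the SDs. Below them came SLC43A1 at 10.5 ± 4.45, SLC7A11 at 9.48 ± 1.52, SLC1A4 at 4.8045 ± 1.79, SLC43A2 at 2.92 ± 0.431 and SLC7A5 at 1.84 ± 0.777. SLC7A11 was the fourth in the NS order and the seventh in the SLIRP siRNA order, but these places are not fixed, since its SDs overlapped those of SLC1A5 in NS and of SLC43A1 in SLIRP siRNA libraries.

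Other genes of amino acid handling were described by lists, without a test of any list, over 8 SLIRP siRNA against 8 NS libraries. Their counts stand against the 17.8% higher and 17.4% lower of all genes tested, and nothing particular to a list is read from them. Of 32 other plasma membrane amino acid carriers, 8 were tested and 8 had 0 counts in every library. Of those tested, 1 rose and 1 fell, and the median log2 fold change was 0.01. SLC7A6 (y+LAT2), another light chain of SLC3A2, rose from 46.7 ± 5.98 to 99.7 ± 9.41 CPM (log2 fold change 1.09, SE 0.10, edgeR FDR 1.67e-10). SLC7A8 (LAT2), a light chain for neutral amino acids, fell from 196 ± 29.1 to 154 ± 15.2 CPM (-0.35, SE 0.09, edgeR FDR 0.00128). Among the light chains SLC7A11, SLC7A8, SLC7A6 and SLC7A5, therefore, 2 fell, 1 rose and 1 did not pass. Of 16 lysosomal and mitochondrial carriers, 11 were tested and 1 rose, SLC25A15, the mitochondrial ornithine carrier (0.49, SE 0.13, edgeR FDR 0.00346), with a median of 0.15.

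Of 34 genes of amino acid sensing by mTORC1, the kinase complex that leucine and other amino acids switch on, 33 were tested, of which 4 rose and 7 fell, with a median of -0.16. The rises were RHEB, the GTPase that activates mTORC1 (1.18, SE 0.12, edgeR FDR 3.02e-09), FNIP2, a partner of folliculin (0.91, SE 0.16, edgeR FDR 1.66e-05), NPRL3, of the GATOR1 complex (0.35, edgeR FDR 0.00994), and SEH1L, of GATOR2 (0.31, edgeR FDR 0.00293). Where the mean count reached 30, the largest falls were MAPKSP1 (LAMTOR3), a Ragulator subunit (-0.80, SE 0.12, edgeR FDR 1.45e-06), SESN1, a sestrin (-0.66, SE 0.09, edgeR FDR 3.99e-07), the kinase MTOR itself (-0.55, SE 0.10, edgeR FDR 2.73e-05) and TSC2, an inhibitor of RHEB (-0.52, SE 0.09, edgeR FDR 1.95e-05). RRAGB, a Rag GTPase with a mean count of 14, named after its values were seen, fell by 0.75 on the log2 scale (edgeR FDR 0.00509). Activators and inhibitors were found on both sides.

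Of 20 amino acid response genes, 19 were tested, 2 rose and 2 fell, with a median of -0.08. STC2, a secreted glycoprotein (0.62, SE 0.12, edgeR FDR 5.52e-05), and ASNS, asparagine synthetase (0.32, SE 0.08, edgeR FDR 0.0013), rose. PSAT1, a serine synthesis enzyme, fell from 289 ± 54.4 to 60.9 ± 11.3 CPM (-2.18, SE 0.11, edgeR FDR 4.55e-16), and DDIT4, an inhibitor of mTORC1, fell by 0.59 on the log2 scale (SE 0.11, edgeR FDR 2.95e-05). ATF4 itself, named here after its values were seen, had 368 ± 23.3 CPM in NS and 421 ± 36.4 CPM in SLIRP siRNA libraries (0.20, SE 0.06, edgeR FDR 0.0126) and did not pass. Among the 5 transporters with the TGATGNAA letters, SLC1A4, SLC38A1 and SLC7A1 rose and SLC3A2 and SLC1A5 did not pass. Among the 4 whose windows lack them, SLC43A1 rose, SLC38A2 fell, and SLC43A2 and SLC7A5 did not pass. With 17.8% of all genes higher and so few members, nothing is read from this about the letters.

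Of 19 enzymes that use glutamine, cystine or leucine, 18 were tested, 3 rose and 2 fell, with a median of 0.13. GCLC, which starts glutathione synthesis from the cysteine that SLC7A11 supplies, rose from 37.02 ± 4.43 to 67.0 ± 15.6 CPM (0.86, SE 0.13, edgeR FDR 3.82e-06), opposite in direction to the carrier. PPAT (0.58, SE 0.08, edgeR FDR 1.22e-06) and CAD (0.53, SE 0.11, edgeR FDR 1.19e-04), which use glutamine for purine and pyrimidine synthesis, also rose. DBT, a subunit of the branched-chain keto acid dehydrogenase, fell slightly (-0.28, SE 0.07, edgeR FDR 0.00218). The other fall, named after its values were seen, was BCKDHA of the same enzyme, with a mean count of 20.9 (-0.75, SE 0.16, edgeR FDR 3.12e-04). BCKDHB, also of that enzyme, had 0.18 (edgeR FDR 0.243) and did not pass. With DHT, 0 genes of these 5 lists passed in NS or in SLIRP siRNA cells by edgeR, where 1.31% and 1.17% of all genes did, shares too small for a count of 0 to say anything of these lists.

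**Figure D5:**
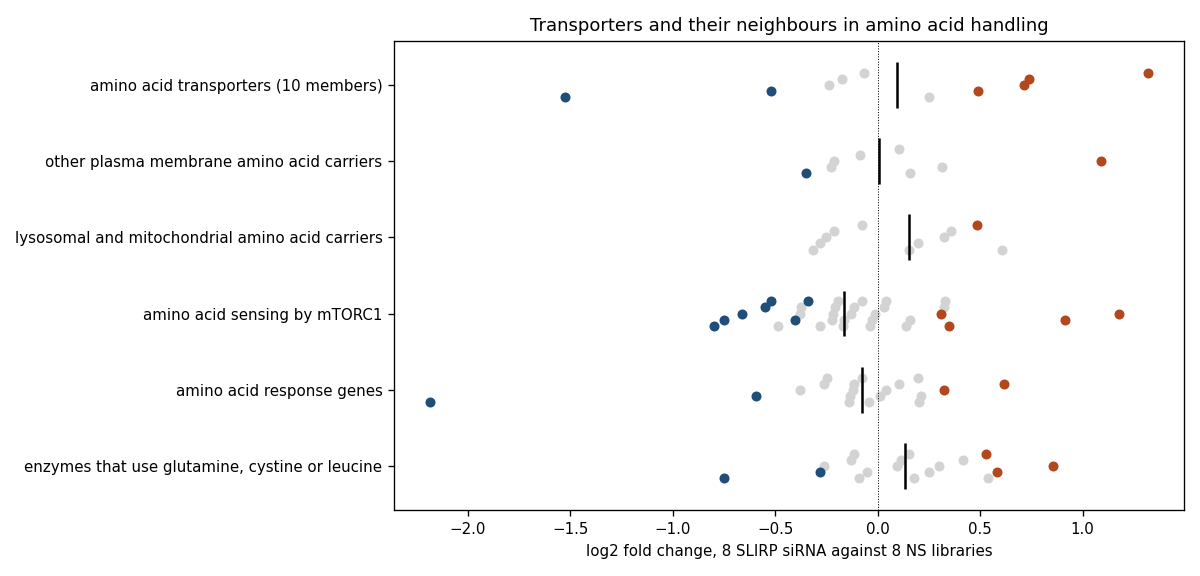
Log2 fold change with SLIRP siRNA over 8 against 8 libraries for each tested gene of the 10 transporters and of 5 related lists, with the list median as a bar; genes at an FDR under 0.01 are orange (higher) or blue (lower) and the others gray. SLC7A11 at -1.53 and PSAT1 at -2.18 lie farthest to the left, and each row has genes on both sides of 0.

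Genes whose log2 CPM was most like that of 3 of the transporters over the 16 libraries were sought where the mean count reached 100. For SLC7A11 these were STEAP2 (Pearson r 0.975), BZW1 (0.975) and HINT3 (0.974). For SLC3A2 the highest values were 0.767 for FAU, 0.762 for SEPHS2 and 0.75 for BAT1, and for SLC7A5 they were 0.791 for RHOC, 0.773 for COBL and 0.768 for ABL1. These values describe likeness only, since the libraries share their siRNA, treatment and depth, and for SLC7A11 the libraries fall into an NS and a SLIRP siRNA cluster.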

How the data were processed

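The authors sequenced single 50-base reads, aligned them with hg19 as reference and deposited estimated counts per gene as whole numbers. The submitters' processing notes name CASAVA, RSEM and hg19, without roles or versions. A second deposited file holds a score for 13148 genes, which matched 1000 times the count over the library's upper quartile within 1.01 times. The estimated counts were analysed with edgeR 4.0.16 in R 4.3.3 (TMM, filterByExpr defaults, glmQLFit, glmQLFTest, Benjamini-Hochberg over all genes tested, FDR 0.01). SLIRP siRNA was compared with NS over 16 libraries and DHT with vehicle over the 8 NS libraries; other comparisons were contrasts of a 4-group model. SE is the log2 fold change divided by the square root of F, and 95% intervals use the t quantile at the test's degrees of freedom. The tests were checked on simulated data. Library totals were 436353 to 1689708 counts, and floors of 3 counts cover counting error only.

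All 10 transporters were named in every comparison, SLIRP as a check, and from each list the 4 largest rises and falls among genes past the FDR with a mean count of at least 30. The members and lists were chosen with earlier results of these data known. Alternatives were DESeq2 1.42.0, limma 3.58.1 on log2 of the normalized table plus 1, RLE and upper-quartile scaling, no filter, at least 10 counts in every library, an FDR of 0.05, treatment as a covariate, only the groups compared, the replicate number as a block, each library left out and, chosen after seeing the data, both shallow NS-Veh libraries left out and replicates 1 and 2 against 3 and 4 as batches. Gene positions and transcript lengths come from a GENCODE annotation lifted to hg19, and figures were drawn with matplotlib 3.10.9.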

Additional observations from a re-analysis of the deposited data

Results flagged for a closer look

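Of 40 groups of 4 libraries (10 transporters in 4 groups), 3 held a library whose gap to its nearest neighbour, as a share of the group's range, exceeded Dixon's 95% critical value (0.863 for SLC7A5, 0.857 for SLC1A4 and 0.897 for SLC43A1). Chance flags about 1 in 20 such groups. SLC7A5 had 11.7 CPM in replicate 4 of NS-1nM DHT, above 4.19, 4.63 and 5.23 CPM in the other libraries of its group, and without it the log2 fold change with DHT in NS cells was -1.41 (edgeR FDR 0.0638) in place of -0.91 and that with SLIRP siRNA in DHT 0.50 in place of -0.01. SLC1A4 had 11.7 CPM in replicate 3 of SLIRP-1nM DHT, below the 29.6 to 32.6 CPM of its group, and without it the log2 fold change with SLIRP siRNA in DHT was 1.77 in place of 1.51. SLC43A1 had 50.7 CPM in replicate 4 of SLIRP-1nM DHT, above the 27.2 to 29.6 CPM of its group, and without it the log2 fold change with SLIRP siRNA in DHT was 0.75 (edgeR FDR 0.0243) in place of 1.04. The counts behind these values were 16, 12 and 63.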

How the results depend on the processing

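SLC7A11, SLC38A2 and SLC7A1 kept their direction and an FDR under 0.01 with SLIRP siRNA, over all libraries and within each treatment, under every alternative run. So did SLC38A1 and SLC1A4 over all libraries and in DHT. Of 26 alternatives, 16 took SLC43A1 over all libraries above an FDR of 0.01, DESeq2 (0.0122), limma (0.0297) and upper-quartile scaling (0.0101) among them. With at least 10 counts in every library, which leaves out SLC1A4 and SLC43A1, 2 transporters were higher over all libraries and 2 in DHT. In vehicle, DESeq2 and limma called 1 higher in place of 2. In SLIRP siRNA cells, no filter and an FDR of 0.05 each called 1 transporter higher with DHT, SLC43A1. Genes called with DHT in NS cells numbered 136, but 236 with no filter, 270 with the block, 293 with replicates 1 and 2 against 3 and 4 as batches, 27 with limma, 272 at an FDR of 0.05 and 69 without both shallow NS-Veh libraries. In SLIRP siRNA cells they numbered 125, but 220, 62, 309 and 201 with no filter, limma, an FDR of 0.05 and those batches, and the difference of the responses gave 11 with no filter. The cause of these shifts was not tested.

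Leaving out 1 library gave 3 to 5 transporters higher over all libraries, 1 to 2 in vehicle and 3 to 4 in DHT, 83 to 113 genes with DHT in NS cells, 73 to 120 in SLIRP siRNA cells and 0 to 1 for the difference. It turned the sign of changes that had not passed. SLC7A5 ranged from -0.220 to 0.160 over all libraries, from -0.356 to 0.076 in vehicle, from -0.446 to 0.496 in DHT and from -0.246 to 0.697 for the difference. With DHT in NS cells SLC3A2 ranged from -0.075 to 0.048, SLC1A4 from -0.035 to 0.251 and SLC7A1 from -0.0080 to 0.088. For the difference SLC43A2 ranged from -0.160 to 0.089 and SLC7A11 from -0.039 to 0.207. Other turned signs were SLC3A2 with DHT in NS cells (-0.0051 with upper-quartile scaling, -0.015 with the block, -0.016 with the batches, -0.0038 with limma), SLC7A5 with SLIRP siRNA in DHT (0.0045 with RLE scaling, 4.03e-04 with DESeq2) and SLC7A5 for the difference (-0.0069 with limma). Without both shallow libraries, SLC7A1 (-0.023) and SLC38A1 (0.050) turned with DHT in NS cells, SLC7A5 (0.0014) with SLIRP siRNA in DHT, and SLC7A11 (-0.060), SLC38A2 (-0.042) and SLC43A2 (0.017) for the difference.

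Replicate numbers were not shown to pair the libraries. The mean correlation of same-numbered libraries' deviations was 0.029 between the vehicle groups, 0.093 between the DHT groups, 0.137 within NS and 0.096 within SLIRP siRNA cells, and 1, 2, 3 and 1 of 4 libraries correlated best with their own number. With the replicate block, SLC1A5 passed over all libraries (0.29, edgeR FDR 0.00844), SLC1A4 did not in vehicle (1.00, edgeR FDR 0.0145) and SLC38A1 did (0.31, edgeR FDR 0.00425). The labels do not tie numbers to the 2 experiments. By chi-square per degree of freedom, replicates 1 and 2 and replicates 3 and 4 were nearest in both NS groups (1.22 to 1.38, against 1.45 to 1.91 across), but in neither SLIRP siRNA group did this hold for both pairs. With these as batches, chosen after seeing the data, SLC1A4 did not pass in vehicle (1.07, edgeR FDR 0.0111) and SLC38A1 did (0.31, edgeR FDR 0.00401).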
